A study of Mus musculus with 24 samples.

Results

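The injury response of the right cortex was set against that of the right cerebellum of the same mouse pups, gene by gene, in 16 of the 24 libraries of the study. The libraries were chosen by their labelled region alone. All pups were CD1 mice of both sexes at postnatal day 9. The hypoxic-ischemic brain injury (HIBI) group had the right common carotid artery cauterized under isoflurane with local bupivacaine and was later kept at 8% oxygen for 30 min. Sham pups were operated on under the same drugs but kept an open carotid, and breathed room air in the warmth, apart from their mothers, while the HIBI pups were hypoxic. Both groups were killed 30 min after that exposure. HIBI pups were numbers 1, 4, 5 and 7 and sham pups were numbers 2, 3, 6 and 8, and both regions were measured in each of the 8 pups. No group received hypoxia alone or ligation alone, so their shares in the HIBI effect cannot be told apart. RNA of whole dissected regions was hybridized to the Mouse Neuroinflammation panel of the nCounter system, which counts fluorescent barcodes of probes without amplification.

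In this injury model the closed carotid and the low oxygen act together on the forebrain of the ligated side, whereas the cerebellum, fed by the vertebral arteries, meets the low oxygen without the carotid occlusion. Cells answer such stress within minutes by transcribing immediate early genes, whose products are mostly transcription factors such as those of the AP-1 family. Low oxygen stabilizes hypoxia-inducible factors, which raise genes of glucose uptake, blood vessel growth and lipid storage. The comparison asked which messages of the panel answered the injury differently in cortex and cerebellum. The quantity tested was the difference of differences, HIBI minus sham in the cortex less HIBI minus sham in the cerebellum, on the log2 scale, so that a positive value means that log2 HIBI over sham was higher in the cortex. Either a rise in the cortex or a fall in the cerebellum gives a positive value, and the sign does not say which region changed more. Below, a gene with the higher value in a region has the higher log2 HIBI over sham there, not the higher count.

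The panel held 757 endogenous genes, of which 741 reached the count minimum in these 16 libraries. Total counts per library were 864735 to 1135000, and an exact two-sided permutation test of the totals between the arms gave p = 0.229 in cortex and p = 0.8 in cerebellum. The mean of the 8 negative control probes was 17.8 to 25.4 counts, its mean plus 2 SD, used here as the background limit, was 29.5 to 43.5, and 606 to 655 endogenous genes lay above that limit. By Tbr1 and Eomes the libraries matched their regions. Tbr1, a transcription factor of cortical glutamatergic neurons, stood at 859 to 1094 normalized counts in cortex and 33.0 to 51.6 in cerebellum, and Eomes, a T-box factor of unipolar brush cells in the cerebellum, at 24.4 to 70.1 in cortex and 191 to 802 in cerebellum. Ttr, a choroid plexus transcript, varied between 111 and 1421 in cortex and between 134 and 8068 in cerebellum, with overlapping arms in both regions. Nrgn, a neuron gene, varied within the sham cerebellum, at 134 and 164 in pups 2 and 3 and 1025 and 1039 in pups 6 and 8. HIBI cerebellum held 522 to 1197. Sham pups 2 and 3 also had the lowest cerebellar values of Slc17a6, Fgf13, Traf3 and St8sia6, but not of Mertk, Cd36 or Fcgr1. The part of this spread in the differences was not tested. Uty, a Y-linked gene, was present in HIBI pups 1 and 4 and in sham pup 3, which is 2 of 4 and 1 of 4 pups.

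No gene passed the test of the difference between cortex and cerebellum. With pup as a block, 0 of 741 genes (0%) had a Benjamini-Hochberg adjusted p under 0.05 in the edgeR quasi-likelihood test, and the smallest adjusted p was 0.18. Before adjustment 60 genes (8.1%) had a p under 0.05, 38 with a higher value in the cortex (5.13%) and 22 with a higher value in the cerebellum (2.97%). DESeq2 called 1 gene, Ccng2. The differences were centred near 0, with a median of 0.02 over all genes, a value above 0 for 396 genes (53.4%), and a 5th to 95th percentile of -0.41 to 0.48. As a second view, the log2 cortex to cerebellum ratio was taken within each pup. The ratios of the 4 HIBI pups lay wholly above or wholly below those of the 4 sham pups for 32 genes (4.32%), 19 above (2.56%) and 13 below (1.75%). These genes had an exact permutation p of 0.0286, the smallest that 4 against 4 pups allow.

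The threshold was passed within single regions. In the cortex 17 of 731 genes (2.33%) rose and none fell, and in the cerebellum 3 of 714 (0.42%) passed, with F3 and Mertk higher and Ago4 lower in HIBI. Before adjustment 9.44% of cortex genes and 16.4% of cerebellum genes had a p under 0.05. That a gene passed in one region and not in the other is no test of the difference, so each gene below is given with the difference itself and its 95% interval. The plot of cortex against cerebellum effects shows where these genes lie.

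**Figure D1:**
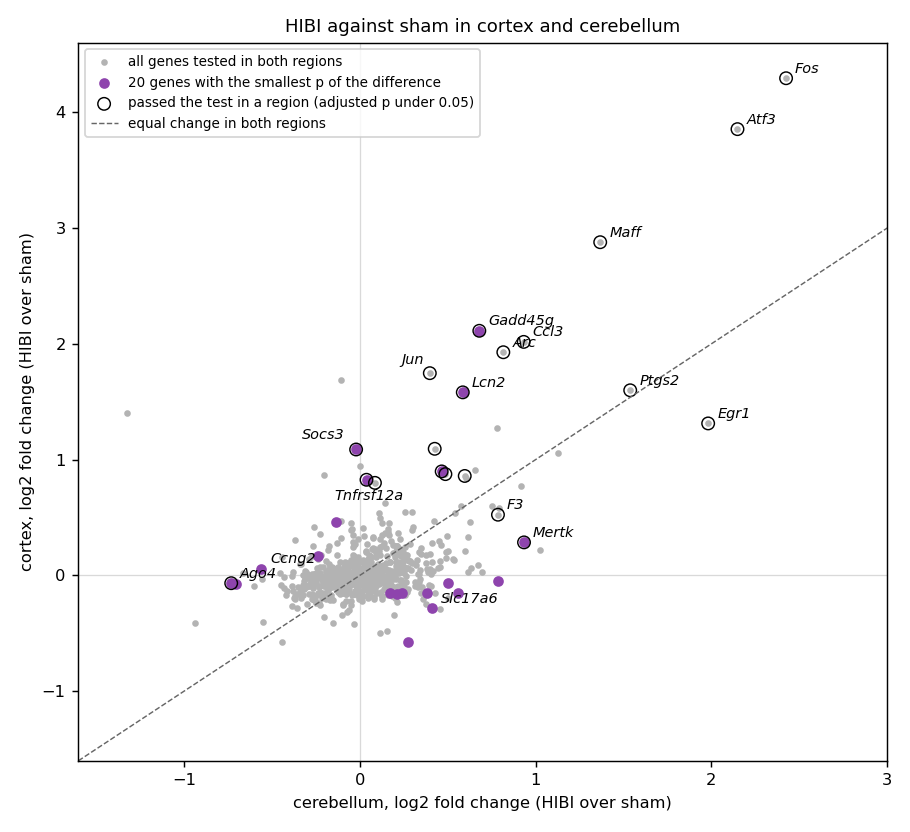
HIBI effect in the cortex (vertical axis, log2 HIBI over sham) against that in the cerebellum (horizontal axis, log2) for the genes tested in both regions, 1 point per gene from edgeR, 4 HIBI and 4 sham pups per region. Fos, at 4.29 in cortex and 2.42 in cerebellum, and Atf3, at 3.85 and 2.15, lie farthest up, while Ccng2 and Ago4 lie near 0 on the cortex axis and below 0 on the cerebellum axis.

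The smallest p belonged to Ccng2, which encodes cyclin G2, an atypical cyclin tied to cell cycle arrest and a known hypoxia target. In the cerebellum it stood at 1475, 1585, 1419.6 and 1945 normalized counts in the injured pups 1, 4, 5 and 7, against 2705, 2465, 2051 and 2290.2 in the sham pups 2, 3, 6 and 8. In the cortex the values were 1092, 1043, 1106 and 1014 in HIBI and 1085, 1061, 963 and 989 in sham pups. Every HIBI cerebellum lay below every sham cerebellum, while the arms overlapped in the cortex. The fitted difference was 0.62 (SE 0.13, 95% interval 0.33 to 0.92), with an edgeR p of 0.000708 before and 0.18 after adjustment. It was 0.55 to 0.74 over 22 alternative settings, and the adjusted p passed in 2 of them, 0.0234 with DESeq2 and 0.0412 without HIBI pup 7.

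Socs3, a feedback inhibitor of cytokine signaling through JAK and STAT proteins, followed. Its cortex held 104, 90.5, 150.3 and 123 normalized counts with injury and 46.6, 59.8, 59.6 and 55.3 without it, so that the arms were apart. In the cerebellum HIBI pups had 149.6, 203, 159.9 and 173 and sham pups 175, 187, 156 and 179, which overlapped. Socs3 rose 2.13-fold in the cortex (adjusted p = 0.0109, edgeR), had a log2 value of -0.02 (SE 0.12) in the cerebellum, and differed between the regions by 1.10 (SE 0.23, 95% interval 0.59 to 1.61). The unadjusted p was 0.00071, and the adjusted p of 0.18 did not pass.

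Lcn2, whose secreted protein binds iron carriers of bacteria and is an acute phase product, differed by 1.01 (SE 0.21, 95% interval 0.54 to 1.49). Its cortex held 138, 92.7, 67.6 and 68.5 normalized counts in HIBI and 30.7, 40.2, 24.4 and 27.1 in sham pups, and its cerebellum 85.6, 43.7, 42.3 and 29.7 in HIBI and 35.1, 39.1, 32.9 and 25.7 in sham pups. HIBI pup 1 was the highest of its arm in both regions. Because 6 of the 16 libraries lay at or below the background limit, the size of this difference is uncertain, and it was 2.28 with the negative control mean subtracted.

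The promoters of Ccng2 and Socs3, the 2 genes with the smallest p, are printed with those of Gadd45g and Fos, 2 immediate early genes whose cortical rise is described below. Each matched 1 RefSeq window (GRCm38.p6), and the 250 bases before the annotated start are shown 5′ to 3′ on the gene's strand. Ccng2 lies at chr5:93267323-93267572 (plus strand), Socs3 at chr11:117969367-117969616 (minus strand), Gadd45g at chr13:51846425-51846674 (plus strand) and Fos at chr12:85473640-85473889 (plus strand). Capitals mark matches to motifs searched on both strands: the AP-1 site TGANTCA, the cAMP response element TGACGTCA and its core TGACG, the hypoxia response core ACGTG, the STAT site TTCNNNGAA and the TATA box TATAAA.
Ccng2: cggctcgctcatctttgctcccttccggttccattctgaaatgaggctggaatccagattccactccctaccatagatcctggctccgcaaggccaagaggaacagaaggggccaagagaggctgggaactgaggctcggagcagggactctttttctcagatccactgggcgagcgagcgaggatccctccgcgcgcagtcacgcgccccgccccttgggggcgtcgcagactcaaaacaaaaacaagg
Socs3: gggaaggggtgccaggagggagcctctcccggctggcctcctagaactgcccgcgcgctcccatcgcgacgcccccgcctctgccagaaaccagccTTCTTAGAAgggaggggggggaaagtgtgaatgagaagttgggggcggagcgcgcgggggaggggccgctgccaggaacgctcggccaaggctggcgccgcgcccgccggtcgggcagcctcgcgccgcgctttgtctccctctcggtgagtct
Gadd45g: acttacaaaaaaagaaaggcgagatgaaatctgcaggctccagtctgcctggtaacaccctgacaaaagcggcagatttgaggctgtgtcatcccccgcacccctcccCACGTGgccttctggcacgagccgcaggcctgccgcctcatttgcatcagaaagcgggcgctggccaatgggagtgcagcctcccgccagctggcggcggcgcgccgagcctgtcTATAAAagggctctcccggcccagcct
Fos: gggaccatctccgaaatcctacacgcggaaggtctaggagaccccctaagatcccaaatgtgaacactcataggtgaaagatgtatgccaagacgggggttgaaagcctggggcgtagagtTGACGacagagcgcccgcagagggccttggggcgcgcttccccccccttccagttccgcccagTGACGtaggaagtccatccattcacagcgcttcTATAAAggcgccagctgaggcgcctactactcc
The Ccng2 window held none of these letters. The Socs3 window held 1 STAT match that begins 154 bases before the start, a motif found in 7.02% of 32851 windows. The Gadd45g window held the hypoxia core on both strands within the overlapping letters CACGTG, 142 bases before the start, where 16.6% of windows hold the core, and a TATA box at 27 bases. The Fos window held the TGACG core at 129 and 66 bases, present in 17.8% of windows, and a TATA box, present in 12.4%, at 33 bases. AP-1 sites (6.75% of windows) and full cAMP response elements (1.55%) were in none of the 4 windows. A match is a description of the letters and not evidence of a bound factor.

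Mertk and Ago4, which passed in the cerebellum, came next. Mertk is a receptor kinase through which phagocytes bind dying cells. Its cerebellum held 518, 400.3, 578 and 442 normalized counts in HIBI and 251, 295, 267 and 204 in sham pups, and the arms did not overlap, with HIBI the higher. In the cortex the values were 739.7, 379.6, 468 and 519.9 and 424, 502, 417 and 393, and the arms overlapped. The difference was -0.68 (SE 0.17, 95% interval -1.06 to -0.30), a higher value in the cerebellum, with an edgeR adjusted p of 0.456. Without HIBI pup 1 it was -0.80 with an adjusted p of 0.0375. Ago4, an Argonaute protein that carries small RNA, held 77.4, 83.0, 77.8 and 91.0 normalized counts in HIBI cerebellum against 139.6, 137, 129.8 and 142 in sham cerebellum, and 83.3, 70.6, 76.2 and 64.3 against 73.1, 85.6, 72.2 and 78.4 in cortex. Its difference was 0.66 (SE 0.17, 95% interval 0.28 to 1.05) with an adjusted p of 0.478. For Ccng2 and Ago4 the sham cerebellum stood above the sham cortex, and the HIBI cerebellum lay nearer to the cortex than the sham cerebellum did. F3, which encodes tissue factor, the starter of coagulation, rose in the cerebellum, with a difference of -0.27 (95% interval -0.64 to 0.10), whose interval includes 0. In F3 the cortex value was 0.52 (SE 0.14, adjusted p = 0.123, edgeR) and the cerebellum value 0.79 (SE 0.13, adjusted p = 0.0358). The cortex value of F3 passed with DESeq2 (adjusted p = 0.0187), with reference-gene scaling (0.044) and without HIBI pup 4 (0.00412). All 3 cerebellar calls ended when any pup other than HIBI pup 7 was left out.

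**Figure D2:**
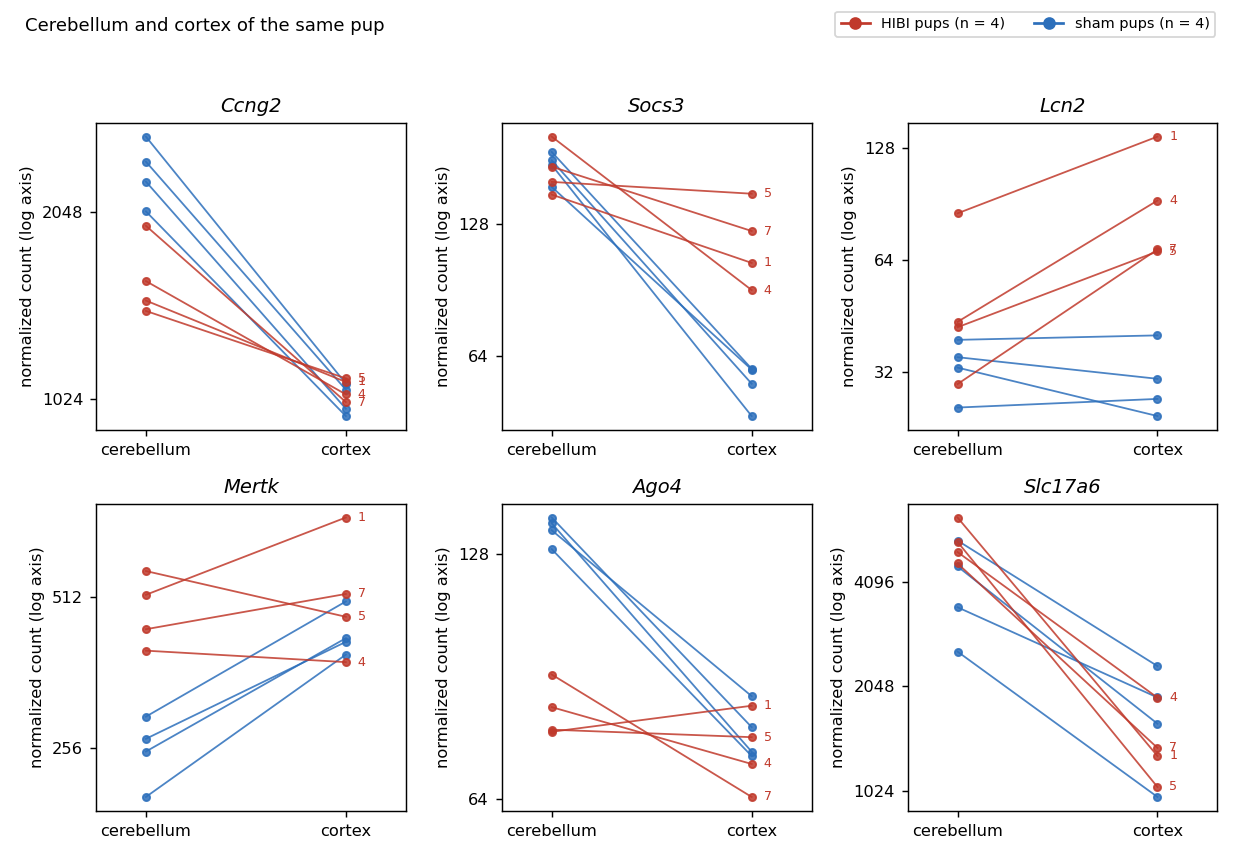
Normalized counts (log axis) in the cerebellum and cortex of each pup for 6 of the genes with the smallest p of the difference, with 1 line per pup, 4 HIBI pups in red with their numbers and 4 sham pups in blue. The Ccng2 and Ago4 lines of HIBI pups start below those of sham pups in the cerebellum and meet them in the cortex, and the Socs3 lines of sham pups end below those of HIBI pups in the cortex.

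Of the 20 genes with the smallest p, 10 had the higher log2 HIBI over sham in the cortex and 10 in the cerebellum. Within-pup ratios did not overlap between the arms for 11 of the 20, beside 4.32% of all genes. These 20 were chosen by the test of the same difference, so their small p and these counts are descriptions, and nothing follows from them. The signs of all 20 held in each of the 22 alternatives, which refit the same pups. Of all 60 named genes refitted in this way, 57 held theirs. Among genes with the higher value in the cerebellum were 2 of neurons. Slc17a6, the vesicular glutamate transporter VGLUT2, stood at 6275, 4989, 5337 and 4625 normalized counts in HIBI and 2576, 3458, 5385 and 4535 in sham cerebellum, with a difference of -0.71 (95% interval -1.19 to -0.22). The cortex values were 1288, 1897, 1049 and 1359 in HIBI and 981, 1899, 2340.0 and 1596 in sham pups, and the arms overlapped in both regions. Fgf13, an intracellular growth factor homolog that binds sodium channels, had a difference of -0.41 (95% interval -0.70 to -0.12). In such bulk tissue, a change in the number of cells of a type and a change in RNA per cell cannot be told apart.

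The other genes with the higher value in the cerebellum included genes of cell death, phagocytes and immune signaling. Traf3, an adaptor of TNF family receptors, held 1616, 1039, 1426 and 1009.7 normalized counts in HIBI and 809.9, 886, 1253 and 951 in sham cerebellum, with a difference of -0.53 (95% interval -0.87 to -0.19). In cortex HIBI pups ranged over 936 to 1086 and sham pups over 998 to 1321. Bid, a trigger of mitochondrial apoptosis, had 515, 513, 526 and 479 against 429.7, 419, 478 and 431 in cerebellum and a difference of -0.38 (95% interval -0.62 to -0.13). The arms of Bid were apart in the cerebellum, HIBI above sham. The differences were -0.33 for Prkar2a, a regulatory subunit of protein kinase A, -0.71 for Cd36, a scavenger receptor for lipids, -0.58 for Fcgr1, a high-affinity receptor of IgG, and -0.85 for St8sia6, a sialyltransferase. Tnfrsf25, a death domain receptor of the TNF family, had -0.86, with 8 of 16 libraries at or below the background limit. Prkar2a and Tnfrsf25 were lower in HIBI than in sham cortex without overlap, at 1624 to 1733 against 1809.7 to 1990.1 and 34.4 to 51.5 against 59.6 to 66.8 normalized counts, and overlapped in the cerebellum. Without HIBI pup 5 the cortex value of Tnfrsf25, -0.69, passed (adjusted p = 0.0415, edgeR). Fcgr1 stood at 69.1, 67.3, 77.0 and 51.6 normalized counts in HIBI and 43.2, 47.5, 39.9 and 56.2 in sham cerebellum, and at 68.5 to 83.3 and 75.2 to 80.1 in cortex. The arms of Fcgr1 overlapped within each region, while their within-pup ratios did not.

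Among genes with the higher value in the cortex, Tnfrsf12a, the receptor of the cytokine TWEAK, rose there 1.77-fold (adjusted p = 0.0493, edgeR). It held 242, 249, 419.6 and 275 normalized counts in HIBI and 189, 159.8, 158 and 165 in sham cortex, and 683, 485, 462 and 383 against 565, 476, 437 and 486 in cerebellum, a difference of 0.79 (95% interval 0.23 to 1.34). Mpeg1, a pore-forming protein of macrophages and microglia, rose 1.86-fold in the cortex. Its values were 189, 237, 231 and 202 in HIBI and 129, 110.3, 137 and 85.4 in sham cortex, and 158, 219.8, 245 and 206 and 151, 159, 162 and 131 in cerebellum, with a difference of 0.46 (95% interval 0.13 to 0.78). HIBI was the higher arm in the cortex without overlap, and in the cerebellum HIBI pup 1 overlapped the sham pups. Tle3, a corepressor of the Groucho family, had a difference of 0.41, Nfkb2, a subunit of NF-kappaB, of 0.59, and Sftpd, a collectin of innate defense, of 0.64. Sftpd was at or below the background limit in 5 of 16 libraries, with 15.5, 25.8, 26.2 and 26.2 normalized counts in HIBI and 37.8, 40.0, 44.9 and 31.4 in sham cerebellum.

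The 3 largest differences among the 741 genes were those of Fos, Ttr and Atf3. Ttr, the choroid plexus transcript, differed by 2.21 (95% interval 0.15 to 4.26, adjusted p = 0.567, edgeR) with overlapping arms. Fos, a subunit of AP-1, stood at 1809, 4934, 8692 and 12636 normalized counts in the cortex of injured pups 1, 4, 5 and 7, against 402, 274, 306 and 460.3 in sham pups. In the cerebellum it stood at 4367, 1557, 294 and 292 in the same HIBI pups and at 419.8, 198, 248 and 343 in sham pups. The order of the HIBI pups in the cerebellum was thus the reverse of that in the cortex, with pup 1 lowest in cortex and highest in cerebellum, and the cerebellum of pups 5 and 7 within the sham range. Within pups the log2 ratio of cortex to cerebellum was -1.27, 1.66, 4.88 and 5.43 in HIBI and -0.06, 0.47, 0.30 and 0.42 in sham pups. Fos rose 19.6-fold in the cortex (log2 4.29, SE 0.54, adjusted p = 0.0051, edgeR), had a log2 value of 2.42 (SE 0.81, adjusted p = 0.241) in the cerebellum, and a difference of 2.57 (95% interval -0.39 to 5.53). The fitted difference is not the subtraction of the regional values, because each regional fit compares arm means, which a high pup dominates, and the paired fit works within pups.

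**Figure D3:**
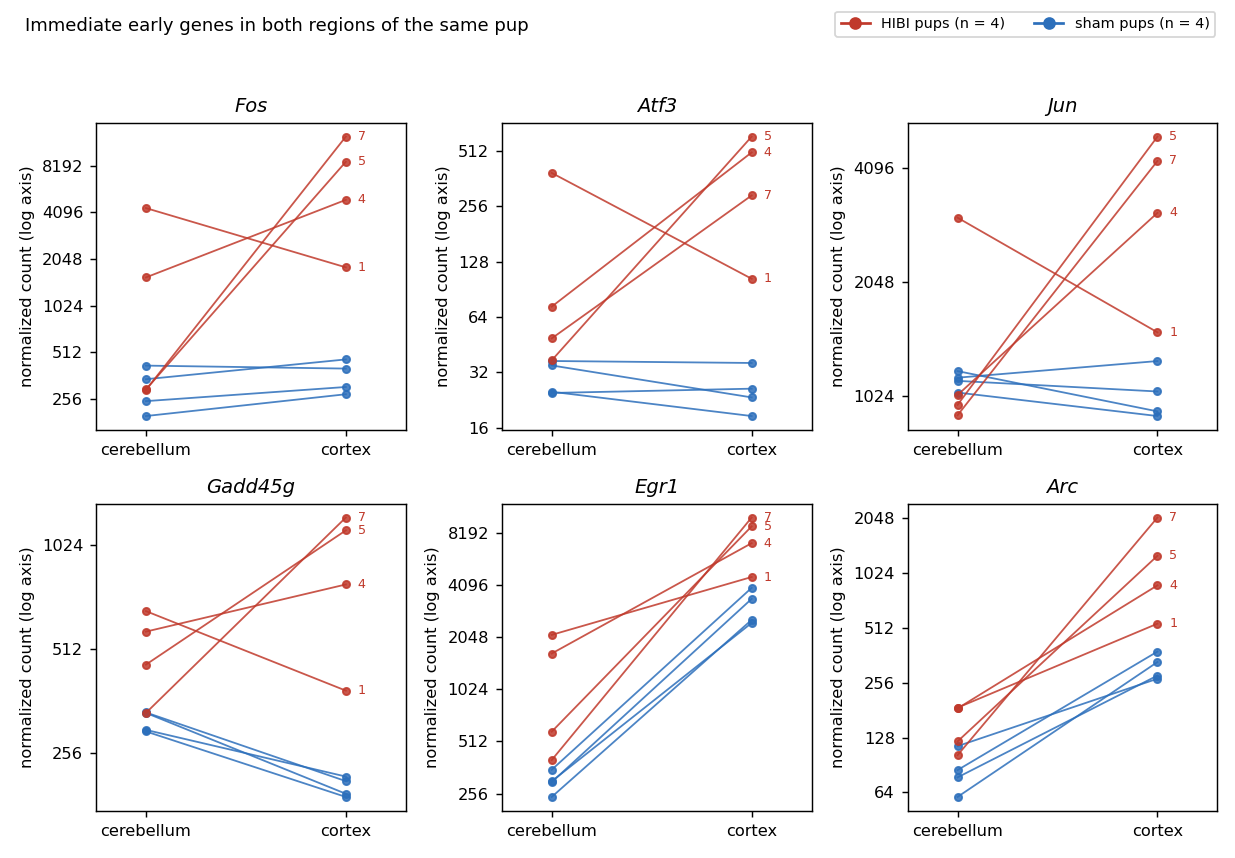
Normalized counts (log axis) of 6 immediate early genes in the cerebellum and cortex of each pup, with 1 line per pup, 4 HIBI pups in red with their numbers and 4 sham pups in blue. The line of HIBI pup 1 falls from cerebellum to cortex for Fos, Atf3, Jun and Gadd45g, whereas those of HIBI pups 4, 5 and 7 climb.

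HIBI pup 1 was likewise lowest in cortex and highest in cerebellum for Atf3, Jun, Gadd45g and Maff. Atf3, a stress-induced transcription factor, held 103, 501, 611 and 293 normalized counts in HIBI cortex and 388, 72.9, 37.2 and 49.0 in HIBI cerebellum, against 18.6 to 36.0 and 24.8 to 36.9 in sham pups. Its difference was 2.19 (95% interval -0.54 to 4.91), and 7 of its 16 libraries were at or below the background limit. Jun, which pairs with Fos in AP-1, held 1509, 3124, 4970.1 and 4286 in HIBI cortex and 3034, 1030.4, 970.4 and 911 in HIBI cerebellum, against 907 to 1267 and 1046 to 1192 in sham pups. In the cerebellum pup 1 thus stood above the sham range of Jun, and the other HIBI pups lay below it. The difference of Jun was 1.51 (SE 0.62, 95% interval 0.12 to 2.89). Gadd45g, a stress-inducible gene of growth arrest, held 389, 787, 1127 and 1228 in HIBI and 192, 196, 219.7 and 213 in sham cortex, and 659, 575, 462 and 335 and 296, 335, 299 and 336 in cerebellum, with a difference of 1.36 (SE 0.46, 95% interval 0.33 to 2.39). Maff, a small Maf transcription factor, was higher in every HIBI than in every sham library of both regions, with 134, 172, 270.5 and 273 in HIBI cortex and 156, 117, 60.9 and 72.6 in HIBI cerebellum against 23.3 to 37.1 and 33.3 to 45.9 in sham pups. Its difference was 1.53 (95% interval 0.33 to 2.73), and 3.01 with the negative control mean subtracted. For Maff 3 of 16 libraries lay at or below the background limit.

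Egr1, Arc and Ptgs2 rose in the cortex as well, and the 95% intervals of their differences included 0. Egr1, an activity-induced zinc finger factor, held 4548, 7130.3, 8914 and 10025 normalized counts in HIBI and 3402, 2573, 2469.9 and 3938 in sham cortex. In the cerebellum it held 2109, 1646, 583 and 399.9 in HIBI and 298, 245, 301 and 352 in sham pups, so that HIBI was above sham without overlap in both regions. The sham cortex held several times more Egr1 than the sham cerebellum, and the log2 HIBI effect was 1.31 in cortex and 1.98 in cerebellum, with a difference of -0.41 (95% interval -1.87 to 1.05) that turned to 0.24 without HIBI pup 1. Arc, a regulator of synaptic strength, differed by 0.96 (95% interval -0.25 to 2.16) and Ptgs2, which encodes cyclooxygenase-2, by 0.14 (95% interval -1.15 to 1.42). These intervals leave room for differences of more than 1 log2 unit in 1 direction or both. Ptgs2 was higher in HIBI than in sham pups without overlap in both regions. Its cerebellum held 132, 67.3, 52.5 and 46.4 normalized counts in HIBI and 19.8, 16.8, 30.9 and 34.3 in sham pups. For Ptgs2 2 of 16 libraries lay below the background limit, and its difference was -0.95 with the negative control mean subtracted. Homer1, a postsynaptic scaffold with an activity-induced short form, differed by 0.43 (95% interval 0.04 to 0.82), and Bdnf, a neurotrophin, by -0.28 (95% interval -0.79 to 0.22).

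These differences moved with single HIBI pups. The immediate early gene score, the mean log2 level of 11 genes relative to sham pups, was 0.88, 1.73, 2.10 and 2.18 in the cortex of HIBI pups 1, 4, 5 and 7 and 1.72, 1.02, 0.35 and 0.25 in their cerebellum. In sham pups it was -0.12 to 0.13 in cortex and -0.17 to 0.14 in cerebellum. Within pups the score of cortex minus cerebellum was -0.84, 0.71, 1.75 and 1.94 in HIBI and 0.11, 0.05, -0.26 and 0.10 in sham pups, so that pup 1 alone among the injured pups lay below the sham pups. Without pup 1, 5 of 741 genes passed the test of the difference. These were Jun (2.22, adjusted p = 0.000356), Atf3 (3.37, 0.00251), Gadd45g (1.86, 0.0164), Tnfrsf12a (1.05, 0.0375) and Mertk (-0.80, 0.0375), by edgeR. Fos had 3.80 with an adjusted p of 0.0573. Without HIBI pup 7 the difference was lower, at 1.42 for Fos and 0.47 for Arc, and Atf3 had 1.41 once HIBI pup 5 was left out. The regions of pup 1 kept their labels by Tbr1 and Eomes, and the labels give no ground to leave it out. Pups 1 and 4, the injured pups with the highest cerebellar scores, were also the injured pups with Uty. A term for Uty by region was added to the fit of all 8 pups after seeing the data. With it 0 genes passed, as without it, and 74 instead of 60 genes had an unadjusted p under 0.05. The Fos difference was 3.28 with the term and 2.57 without it. Because Uty was present in 2 of 4 HIBI pups and 1 of 4 sham pups, a part of sex cannot be told apart from that of single pups.

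Of 10 hypoxia targets, Hilpda, Slc2a1 and Flt1 rose in the cortex, which is 3 of 10 beside 2.33% of all genes. Hilpda, a lipid droplet protein, held 283, 192, 303 and 283 normalized counts in HIBI and 124, 128, 126 and 122 in sham cortex. In the cerebellum HIBI pups had 282, 148, 135 and 148 and sham pups 145, 132, 118 and 134, so that pup 1 stood well above the sham range, pups 4 and 7 just above it and pup 5 within it. The difference of Hilpda was 0.70 (95% interval 0.16 to 1.24). Slc2a1, the glucose transporter GLUT1, held 723, 443, 680.4 and 705 in HIBI and 324 to 388 in sham cortex, and 733, 455, 454 and 402 and 317 to 368 in cerebellum. HIBI lay above sham without overlap in both regions, and the difference was 0.27 (95% interval -0.15 to 0.69). DESeq2 called Slc2a1 in the cerebellum as well (adjusted p = 0.0499). Flt1, a receptor of vascular endothelial growth factor, had HIBI above sham in both regions save HIBI pup 4, whose cerebellum overlapped the sham pups, and a difference of 0.41 (95% interval -0.05 to 0.86). Vegfa, that growth factor, had 0.84 in cortex, 0.60 in cerebellum and a difference of 0.23 (95% interval -0.16 to 0.62), and passed in neither region.

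Ccl3, a chemokine of microglia and macrophages, held 57.8, 105, 292 and 181 normalized counts in HIBI and 41.3, 37.1, 42.0 and 37.2 in sham cortex, and 132, 68.4, 44.0 and 39.4 and 32.4, 33.5, 44.9 and 36.2 in cerebellum. It rose in the cortex, and its difference of 1.02 had a 95% interval of -0.66 to 2.71 and was 0.43 without HIBI pup 5 and 1.81 without HIBI pup 1. Tnfrsf10b, a death receptor of the ligand TRAIL, rose in the cortex, and differed by 0.70 (95% interval 0.05 to 1.36). For Ccl3 and Tnfrsf10b, 3 of 16 libraries each lay at or below the background limit. In all, 16 of the 17 genes that rose in the cortex had a difference above 0, Egr1 being the other, 9 had a 95% interval that excluded 0 before adjustment, and 3 had within-pup ratios of the arms apart, against 53.4%, 8.1% and 4.32% of all genes. Because the 17 were chosen by their cortex effect, which enters the difference, nothing follows from these counts.

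**Figure D4:**
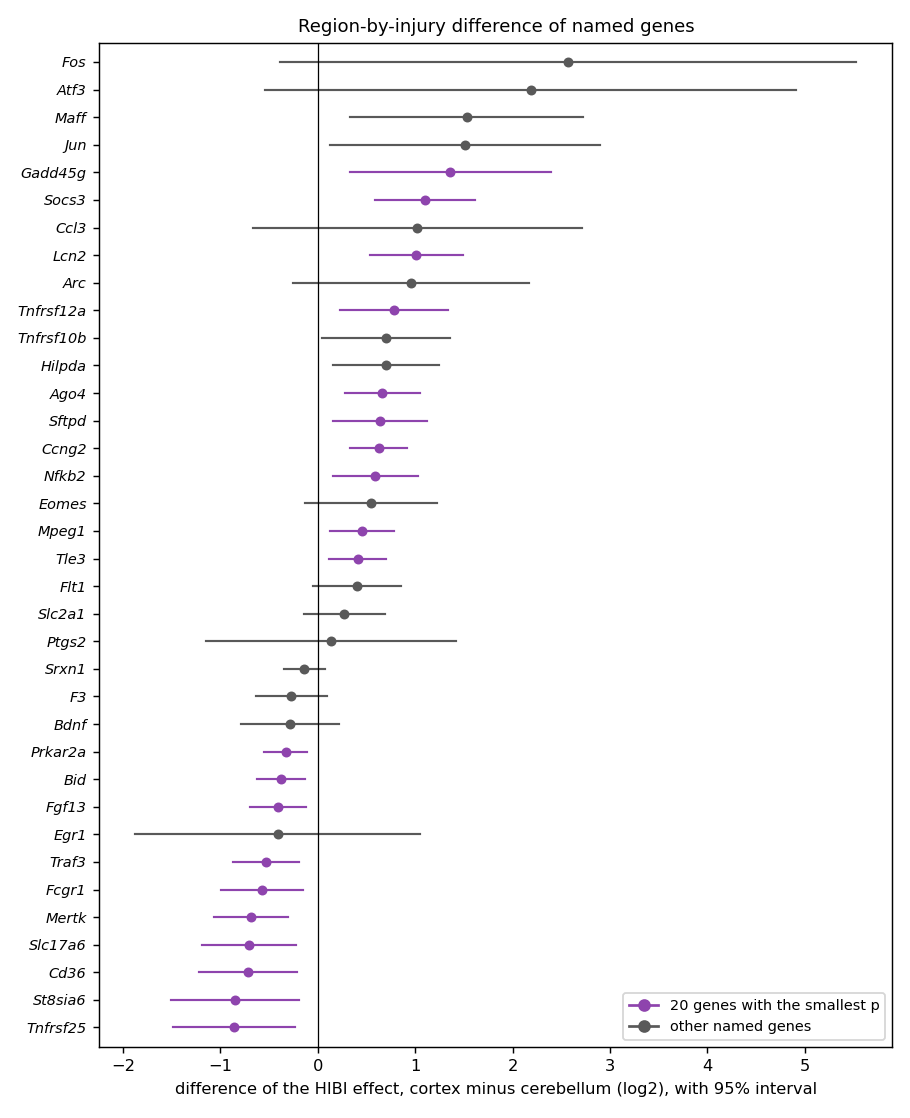
Difference of the HIBI effect (cortex minus cerebellum, log2) with its 95% interval for 36 named genes, from the edgeR fit with pup as a block. The 20 genes with the smallest p are in purple and the others in grey, and the intervals of Fos, -0.39 to 5.53, and Atf3, -0.54 to 4.91, are the widest.

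Gene lists of pathways and cell types described the same values in groups, and none of their genes passed the test of the difference. Only some of the lists computed are described here. Among the others, 15 of 20 oligodendrocyte genes had a difference above 0, and 8 of 12 Toll-like receptor and adaptor genes had one below 0. Of 11 immediate early genes 9 had a difference above 0, with a list median of 0.96 beside 0.02 for all genes, and 8 rose in the cortex and 0 passed in the cerebellum, where 2.33% and 0.42% of all genes passed. The cerebellar count depends on the fit, since DESeq2 called Maff (adjusted p = 0.000568), Ptgs2 (0.00288), Egr1 (0.0184), Gadd45g (0.0215) and Arc (0.0499) there, all higher in HIBI. With the 16 libraries in 1 edgeR fit Egr1 and Maff passed there, and without HIBI pup 7 Egr1 and Gadd45g. The regional medians of this list were 1.75 in cortex and 0.82 in cerebellum, and 6 of its genes had been named by the study on these samples. Of 10 hypoxia targets 8 were above 0, with a median of 0.25. Among the 8 was Ccng2, at 0.62, whose HIBI cerebellum lay below sham while its arms overlapped in the cortex. Hif1a, at 0.14, is itself a part of a hypoxia-inducible factor. The within-pup score of the list was 0.01, 0.12, 0.58 and 0.44 in HIBI and -0.07, 0.02, 0.01 and 0.04 in sham pups. HIBI pups 4, 5 and 7 stood above the sham pups and pup 1 among them.

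Genes of microglia and of phagocytosis lay mostly below 0. Of 22 microglia markers 17 had a difference below 0, as did 46.6% of all genes, with a median of -0.15, and regional medians of 0.06 in cortex and 0.20 in cerebellum. The microglia score of the cerebellum ranged over 0.08 to 0.35 with injury and -0.22 to 0.12 without it, and that of the cortex over 0.00 to 0.15 and -0.04 to 0.10, so that the arms overlapped in both regions. Mpeg1 had the smallest p of the list, the only one under 0.05 before adjustment, and lay above 0. It was followed by Cx3cr1, the fractalkine receptor, at -0.28 (95% interval -0.57 to 0.00), the kinase Lyn at 0.25 (95% interval -0.01 to 0.51), and Tmem119, a surface marker of resident microglia, at -0.26 (95% interval -0.54 to 0.03). Lyn was lower in HIBI without overlap in both regions, and its within-pup ratios did not overlap. Of 15 complement and Fc receptor genes 10 were below 0, with a median of -0.16. C1qb and C1qc, subunits of the first complement component and members of both lists, had -0.22 and -0.20, whereas C3ar1, the receptor of a complement fragment, had 0.89 (95% interval -0.01 to 1.79). Of 9 genes for the clearance of dying cells 7 were below 0, with a median of -0.16. That score was -0.22, -0.20, -0.34 and -0.15 in HIBI and -0.00, -0.11, 0.20 and -0.09 in sham pups within pups, and Mertk and Cd36 held the smallest p. The part of microglia number in the values of Mertk and Fcgr1 was not tested.

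Genes of the cell cycle, DNA repair and chromatin had small differences, mostly above 0. Of 29 cell cycle and replication genes 26 had a difference above 0, with a median of 0.17, and regional medians of -0.09 in cortex and -0.25 in cerebellum. The cerebellar score was -0.50, -0.23, -0.34 and 0.06 in HIBI pups 1, 4, 5 and 7 and 0.19, 0.07, -0.12 and -0.14 in sham pups, so that pup 7 lay among the sham pups. In the cortex the score was -0.12 to 0.01 in HIBI and -0.07 to 0.06 in sham pups. Kif2c, a mitotic kinesin, had the smallest p of the list, with a difference of 0.51 (95% interval 0.09 to 0.93), and Timeless, a replication fork protein, had 0.30 (95% interval -0.02 to 0.62). Of 40 DNA damage and repair genes 37 were above 0, with a median of 0.13, led by Mre11a, a nuclease of double-strand break repair, at 0.39 (95% interval 0.08 to 0.70). The 2 lists share 12 genes, which is 41.4% of the first and 30% of the second. Of 54 chromatin regulators 46 were above 0, with a median of 0.11, led by Kat2b, a histone acetyltransferase, at 0.44 (95% interval 0.10 to 0.79) and Setd7, a lysine methyltransferase, at 0.34. Genes of a list share the same 8 pups and are not replicates, and 53.4% of all genes lay above 0.

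**Figure D5:**
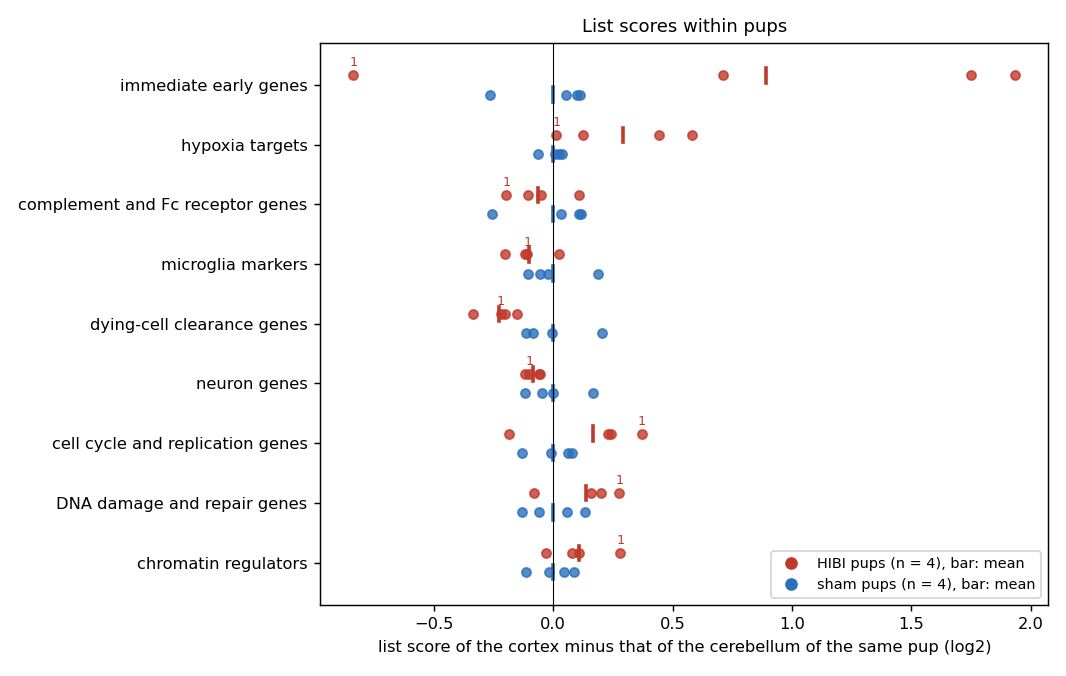
Score of each described gene list within each pup, the mean log2 level in cortex minus that in cerebellum relative to sham pups, with 1 point per pup, 4 HIBI pups in red and 4 sham pups in blue. For immediate early genes HIBI pup 1 lies at -0.84 and pups 4, 5 and 7 between 0.71 and 1.94, while the arms overlap for cell cycle genes.

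Neuron genes were balanced. Of 33 neuron genes 17 had a difference above 0 and 16 below, with a median of 0.00. Slc17a7, the vesicular glutamate transporter VGLUT1 of cortical neurons and cerebellar granule cells, had a difference of 0.52 (95% interval 0.10 to 0.95), opposite in sign to Slc17a6, with cerebellar and cortical HIBI effects of -0.56 (SE 0.16) and -0.03 (SE 0.09). Its within-pup ratios were 2.85, 2.39, 2.42 and 2.38 in HIBI and 1.42, 2.23, 2.33 and 1.96 in sham pups and did not overlap. Tubb3, a tubulin of neurons, had -0.42 (95% interval -0.78 to -0.06). Eomes held 191, 300.5, 209 and 489 normalized counts in HIBI and 802, 526, 319 and 648 in sham cerebellum, which overlapped, and had a difference of 0.55 (95% interval -0.13 to 1.23). Srxn1, the antioxidant enzyme sulfiredoxin and the last of the 11 genes named by the study, had -0.14 (95% interval -0.35 to 0.07).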

How the data were processed

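Regions with the same subject number in the sample titles came from the same pup, so pup was a fixed block. Nothing in the labels says whether pups shared a litter. The authors deposited raw barcode counts of 784 probes per library (757 endogenous, 13 reference, 6 positive and 8 negative control), which were used as deposited. The authors deposited a second table whose signal values are group means of normalized counts made in nSolver (its settings are not given in the sources used here). Only its probe names and classes were read. Its columns of folds and p-values, which hold the study's own comparisons, were not used.

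Genes with at least 20 counts in at least 4 of the fitted libraries were kept and scaled with TMM factors in edgeR 4.0.16 (R 4.3.3). The region by injury term was tested with the two-sided quasi-likelihood F test and Benjamini-Hochberg adjustment over all genes tested, with an adjusted p under 0.05 as the threshold. Each region was also fitted alone (8 libraries, adjusted over 731 genes in cortex and 714 in cerebellum). SE is the log2 value over the root of F, and 95% intervals used the moderated degrees of freedom (6 residual). Normalized counts are counts over the scaled library size, at the level of the raw counts, and within-pup ratios used a pseudocount of 1. Single within-pup ratios were compared with the exact permutation test (70 splits, two-sided). Replicate libraries correlated at 0.977 to 0.994, and all 24 pairs differed by more than counting error. No background was subtracted. The scripts were tested on simulated data.

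Alternatives were limma 3.58.1 (voom, and on within-pup ratios), DESeq2 1.42.0, other scalings and filters, all 24 libraries and each pup left out. A robust fit and a term for Uty were chosen after seeing the data. The text names the 20 genes with the smallest p of the difference, as fewer than 10 passed, those that passed in a region, the 11 genes named by the study, and up to 4 members of each described list by smallest p. Vegfa, Ttr and Nrgn were named after their values were seen. The comparison, its lists and this rule were chosen with earlier results of these data known. Promoters came from RefSeq windows (GRCm38.p6).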

Additional observations from a re-analysis of the deposited data

Results flagged for a closer look

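Among 138 groups of 4 pups tested for a value far from the other 3, 4 were found, where chance gives about 1 in 20. In sham pup 2 the log2 ratio of cortex to cerebellum was -0.85 for Hif1a, against -0.58 to -0.53 in the other sham pups. In the same pup it was 1.63 for Tmem119, against 1.34 to 1.37. In HIBI pup 1 it was 2.85 for Slc17a7, against 2.38 to 2.42 in the other HIBI pups. In sham pup 6 the immediate early gene score of cortex minus cerebellum was -0.26, against 0.05 to 0.11 in the other sham pups.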

How the results depend on the processing

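The count of genes that passed the test of the difference was 0 in all fits except DESeq2, which called 1 (Ccng2), and was 0 to 5 over the fits that each left out a pup, 5 without HIBI pup 1 and 1 (Ccng2) without HIBI pup 7. The number with an unadjusted p under 0.05, 60 in the report, was 35 (without sham pup 2) to 93 (without HIBI pup 7). Its split of 38 higher in the cortex and 22 lower became 35 of 66 with reference-gene scaling, 31 of 70 with total-count scaling and 53 of 68 without HIBI pup 1. Without the pup block 0 genes passed and 57 had an unadjusted p under 0.05. Deviations from the arm mean correlated between regions of 1 pup at -0.06 to 0.57, above 0.1 in 6 of 8 pups. The cortex count of 17 was 11 with limma-voom, 27 with reference-gene scaling and 7 to 22 with a pup left out. The cerebellum count of 3 was 15 with DESeq2, 5 with reference-gene scaling, 9 with the 16 libraries in 1 fit and 0 to 7 with a pup left out.

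Reference-gene scaling moved the median log2 effect of all genes to 0.08 in cortex and 0.12 in cerebellum, and that of the difference to -0.01. With it the cortex effects of Ago4 (0.028), Fcgr1 (0.024), Sftpd (0.022), St8sia6 (0.045) and Srxn1 (0.027), the cerebellum effect of Socs3 (0.10) and the median difference of neuron genes (-0.019) changed sign. With the negative control mean subtracted the differences of Ptgs2 (-0.95) and Eomes (-0.018) changed sign. With a pup left out the sign turned for the difference of Egr1 (-1.004 to 0.24) and Ptgs2 (-0.19 to 0.67) and the neuron median (-0.095 to 0.0047). It turned for the cortex effects of Cd36 (-0.31 to 0.10), Sftpd (-0.14 to 0.055), St8sia6 (-0.090 to 0.066) and Bdnf (-0.17 to 0.045). It turned for the cerebellum effects of Socs3 (-0.11 to 0.044), Tnfrsf12a (-0.14 to 0.16), Jun (-0.21 to 0.59) and Tnfrsf10b (-0.013 to 0.21). The cause was not tested. The signs of 57 of the 60 differences of named genes held in every alternative run.

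The design limits what can be seen. With 4 pups an arm, intervals of most immediate early genes spanned over 2 log2 units, and genes near the background limit have compressed differences.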
